A study of Homo sapiens with 14 samples.

Results

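The late risers are 104 of 11963 genes, or 0.869% of those measured, whose transcripts stayed near their untreated level at 8 h of dexamethasone and stood higher at 24 h in RS4;11 leukemia cells. They were chosen from the same values that are described here. A gene was taken when its mean log2 value differed from that of untreated cells by less than 0.25 in either direction at 8 h, was higher by at least 0.7 at 24 h, and reached at least 6 at 24 h. A log2 difference of 1 is a 2-fold difference. Because the means at 0, 8 and 24 h made the choice, the members' differences between these times are given as descriptions and carry no p-value.

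RS4;11 is a line of human B-cell precursor acute lymphoblastic leukemia that carries a rearranged KMT2A gene. All cells were first kept for 48 h in medium with serum stripped of hormone. They were then given dexamethasone at 10 nM for 24 h (5 arrays) or 8 h (5 arrays), or were left untreated (0 h, 4 arrays). No array held cells kept for 8 h or 24 h without the hormone, so time in culture and dexamethasone cannot be told apart. The sample descriptions end in suffixes that read as days, and arrays with the same suffix were taken as a run, giving 5 runs with 8 h and 24 h arrays in each. Runs 1 and 2 share a day by this reading and are called day set A, and runs 3, 4 and 5 make up day set B. Run 5 has no untreated array, and the authors left out 1 untreated array after quality control. Neither the labels nor the methods state that replicates were separate cultures, so their spread may be technical. The cells are a single line, and a change in all cells cannot be told apart from a change in a fraction of them.

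Dexamethasone binds the glucocorticoid receptor, which enters the nucleus and acts on genes near its binding sites within hours. Genes that follow only later can depend on proteins made or lost in the meantime, or on the altered state of the cells. In lymphoid leukemia, glucocorticoids are known to arrest the cell cycle and then to cause cell death.

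Untreated cells had the transcripts of the B lineage, with all 8 measured B-lineage markers at a mean of at least 6. At 24 h 4 of these 8 were higher and 3 lower in limma, the lower ones being DNTT (−1.80), IGLL1 (−0.58) and CD22 (−0.35). The 8 monocyte and granulocyte markers lay between 3.45 and 5.49 in untreated cells and the 4 erythroid and platelet markers between 2.94 and 5.88. Of the 8 T and NK cell markers, CD3D, CD3E, CD3G and CD2 lay between 3.72 and 4.57, while LCK, NKG7 and PRF1 were at 6.78 or above. At 24 h against untreated cells the smallest adjusted p of a T or NK marker in limma was 0.204, and of the monocyte and granulocyte markers ITGAM was higher by 0.83 and CSF1R lower by 0.33. Transcripts of DNA replication moved the other way over the same hours, with 34 of 35 list genes lower at 24 h (20.5% of all genes) and a median difference of −2.14. At 8 h 22 of the 35 were already lower (10.7% of all genes), with a median of −0.43. The part of this fall in the values of the late risers was not tested.

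The late risers rose by 0.70 to 1.63 at 24 h against untreated cells, with a median of 0.82, where the median over all genes was −0.01. At 8 h their differences lay between −0.20 and 0.25 with a median of 0.16, against −0.02 over all genes. The rule lets small differences pass, and 90 of the 104 means were above the untreated mean at 8 h and 14 below it. The label of a rise only after 8 h is therefore loose, since the median late riser had 17.2% of its 24 h difference by 8 h, with a range of −25.7% to 35%. Early risers, the 273 genes that were at least 0.7 higher at both times and also reached 6, had a median difference of 1.84 at 24 h and 1.13 at 8 h. Between 24 h and 8 h the medians were 0.69 for late risers and 0.56 for early risers.

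**Figure D1:**
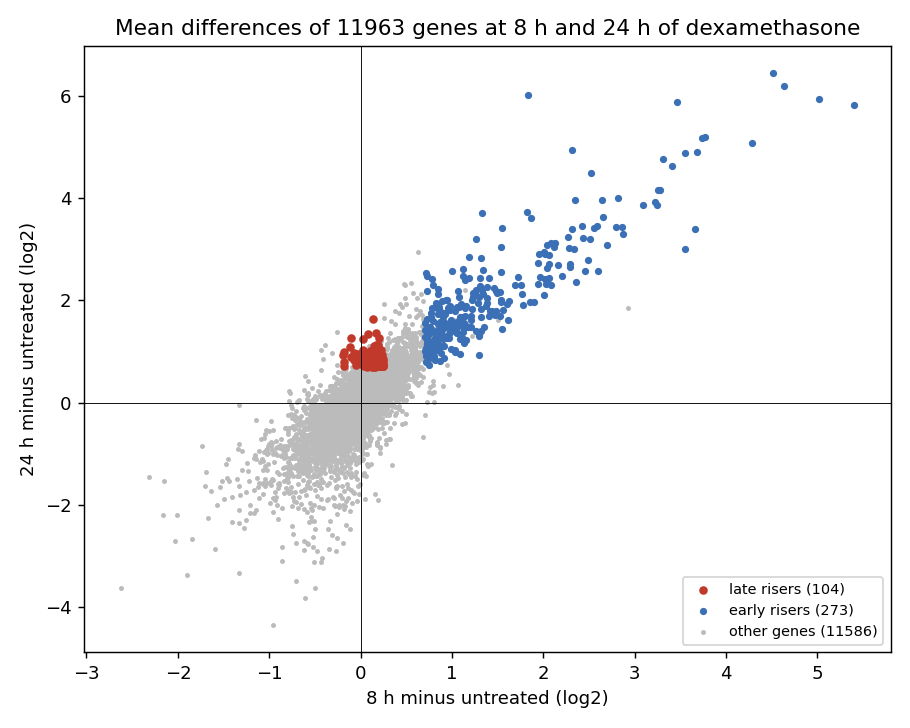
Each point is one of 11963 genes, with the mean log2 difference of 8 h from untreated cells on the horizontal axis and of 24 h from untreated cells on the vertical axis. The 104 late risers (red) fill a narrow block between −0.20 and 0.25 at 8 h and 0.70 and 1.63 at 24 h, while the 273 early risers (blue) reach further on both axes.

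Among the late risers 103 were called higher at 24 h than in untreated cells by limma at a Benjamini-Hochberg adjusted p below 0.05, where 20.0% of all genes were called higher, and the exception was CTSZ, which was called once the run was a block. At 8 h, 5 were called higher (AMPD3, TAX1BP1, APH1B, NEU1 and SIDT2), where 8.90% of all genes were called higher and 19.7% in either direction. The 8 h arrays lay wholly above the untreated arrays in 5 (JAK1, TAX1BP1, FNBP1L, APH1B and NEU1), against 7.87% of all genes. These counts follow from the choice of the members and nothing is read from them. The 24 h arrays lay wholly above the untreated arrays in 102 members (17.8% of all genes), with CTSZ and IGHD overlapping. The 5 arrays of 24 h lay wholly above the 5 arrays of 8 h in 99 (12% of all genes). In all 4 runs that hold an untreated array every one of the 104 members was higher at 24 h, as were 26.8% of all genes, and the run medians were 0.80, 0.80, 0.76 and 0.99. The counts at 24 h also follow largely from the choice of the members, and nothing is read from them. Just inside the 24 h limit lay FHIP2B (0.701), PLAG1 (0.702) and USP18 (0.703), and just outside it RNASET2 (0.698), ZNF224 (0.698) and XBP1 (0.697). At the 8 h limit EVA1B (0.249), FNBP1L (0.247) and SIDT2 (0.247) were inside, and HPCAL1 (0.251), ENTPD4 (0.253) and LMF1 (0.253) outside. At the level limit HIP1 (6.02), N4BP3 (6.12) and LOC100996756 (6.22) were inside, while GHRHR (5.82), CHST7 (5.72) and ICAM4 (5.71) were outside. The members are thus a slice of a continuous cloud and not a group with an edge, with 77 further genes between 0.6 and 0.7 at 24 h and 81 between 0.25 and 0.35 at 8 h.

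**Figure D2:**
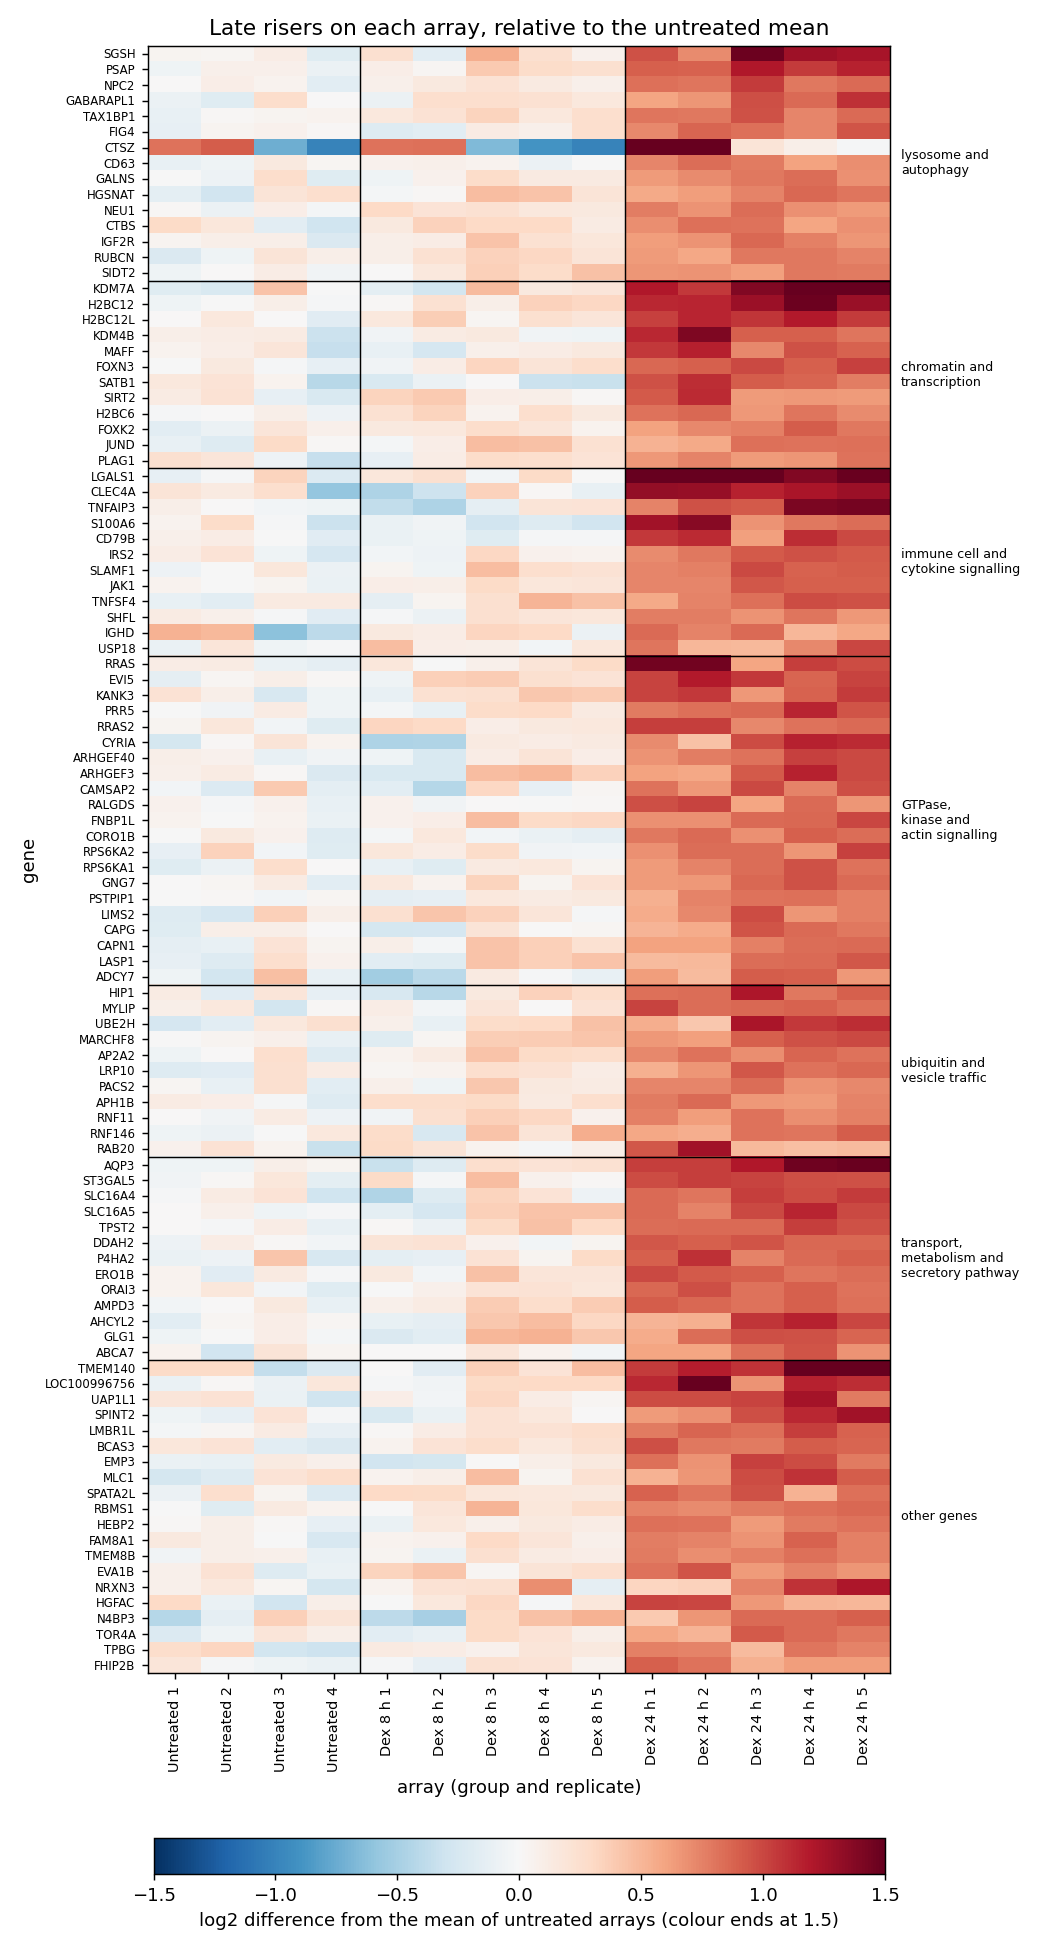
Rows are the 104 late risers grouped by role, columns are the 14 arrays, and colour gives the log2 difference of each array from the mean of the untreated arrays, ending at 1.5. The 24 h columns are red in nearly every row and the 8 h columns pale, except CTSZ, where arrays of replicates 1 and 2 in every group stand above the others.

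By role, as assigned by hand once the members were known, 15 late risers belong to the lysosome and autophagy, 12 to chromatin and transcription, 12 to immune cell and cytokine signalling, 21 to GTPase, kinase and actin signalling, 11 to ubiquitin and vesicle traffic, and 13 to transport, metabolism and the secretory pathway. The other 20 were not placed. The median difference of a group at 24 h lay between 0.73 for the lysosome and autophagy and 0.93 for chromatin and transcription. At 8 h the group medians lay between 0.11 for GTPase, kinase and actin signalling and 0.20 for the lysosome and autophagy.

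The lysosome breaks down material delivered by endocytosis or, in autophagy, from the cell's own cytoplasm. Its hydrolases are made in the secretory pathway and carried there by mannose 6-phosphate receptors. SGSH, the sulfamidase that removes sulfate from heparan sulfate, read 5.48, 5.48, 5.55 and 5.26 at 0 h, 5.69, 5.28, 5.99, 5.68 and 5.51 by 8 h and 6.39, 6.15, 6.91, 6.72 and 6.67 by 24 h. All 5 of its 24 h arrays were above every earlier array, and the mean difference from untreated cells was 1.13 (SE 0.15), a 2.19-fold rise. PSAP, the precursor of the saposins that help degrade sphingolipids, read 10.42, 10.56, 10.57 and 10.40 at 0 h, 10.58, 10.52, 10.88, 10.77 and 10.73 by 8 h and 11.39, 11.37, 11.69, 11.53 and 11.64 by 24 h. Its arrays at 0 h and 8 h overlapped and those at 24 h stood apart, with a difference of 1.04 (SE 0.09) at 24 h and 0.21 at 8 h. A further probe set gave 1.02 at 24 h for PSAP, and one for SGSH gave 0.50 with −0.08 at 8 h.

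NPC2, which moves cholesterol out of the lysosome, had 10.50, 10.60, 10.54 and 10.34 at 0 h, 10.57, 10.64, 10.71, 10.64 and 10.57 by 8 h and 11.32, 11.30, 11.55, 11.29 and 11.35 by 24 h. The 24 h arrays were all high, that of replicate 3 most of all, and the difference was 0.86 (SE 0.07). NEU1, the lysosomal sialidase, had 7.35, 7.25, 7.43 and 7.30 at 0 h, 7.63, 7.54, 7.56, 7.49 and 7.48 by 8 h and 8.11, 8.01, 8.17, 8.02 and 7.97 by 24 h. In this gene the 3 times formed 3 levels that did not overlap, with steps of 0.21 at 8 h and 0.72 at 24 h against untreated cells. CD63, a tetraspanin of late endosomes and lysosomes, differed by 0.02 at 8 h and by 0.73 (SE 0.07) at 24 h.

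CTSZ, a lysosomal cysteine protease, was split by day. In day set A it read 8.96 and 9.05 at 0 h, 8.96 and 8.97 by 8 h and 10.01 and 9.98 by 24 h. In day set B it read 7.41 and 7.14 at 0 h, 7.48, 7.24 and 7.14 by 8 h and 8.33, 8.23 and 8.12 by 24 h. The untreated arrays of one day set thus stood above the 24 h arrays of the other, but the rise within a day set was alike, at 0.99 in A and 0.95 in B. The difference of group means was 0.79 (SE 0.54), while a fit that blocked on run gave 0.97 (SE 0.05). A further CTSZ probe set differed by −0.05 at 24 h.

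The other lysosomal and autophagy members had 24 h differences between 0.71 and 0.84. They include GALNS (0.73) and HGSNAT (0.72), enzymes of glycosaminoglycan breakdown, CTBS (0.72), which cleaves the chitobiose core of glycans, and IGF2R (0.72), the large mannose 6-phosphate receptor. Another IGF2R probe set differed by 0.32 at 8 h and 0.86 at 24 h and would not have been taken as late. SIDT2 (0.71) is a lysosomal membrane protein and FIG4 (0.82) a phosphoinositide phosphatase of the endolysosomal membrane. TAX1BP1 (0.82) is a receptor that brings cargo to autophagosomes, and RUBCN (0.71) a known brake on autophagy. GABARAPL1, an ATG8-family protein of the autophagosome, rose by 0.84 and differed by 0.16 at 8 h on the probe set used, but a dimmer probe set of the same gene rose by 0.99 at 8 h and 2.03 at 24 h and would not have been taken as late.

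On a list of 51 lysosome and autophagy genes 47 were measured. Of these, 7 were late risers and 4 early risers (LAPTM5, ULK1, CTSB and WIPI1). The late risers were 14.9% of the measured list genes, against 0.869% of all genes. These shares are not like for like, since all genes include many too dim at 24 h for the level limit of the rule. The share among genes that reach that limit was not computed. The list was also chosen with earlier results known, and nothing is read from its count of late risers. Of the 40 list genes that were not late risers, 28 were higher at 24 h than in untreated cells by limma, 3 lower and 9 did not pass, with 20.0% of all genes called higher. The median of these 40 was 0.37 at 24 h and 0.12 at 8 h. MAP1LC3B, an ATG8-family protein, rose by 1.26 (SE 0.08, adjusted p = 1.04e-09) and the cathepsin gene CTSB by 1.89 (SE 0.12, adjusted p = 1.39e-09) in limma. The 3 that fell at 24 h were GLA (−0.83), which encodes alpha-galactosidase A, GUSB (−0.39), which encodes beta-glucuronidase, and TFEB (−0.29), a master transcription factor of lysosomal genes.

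**Figure D3:**
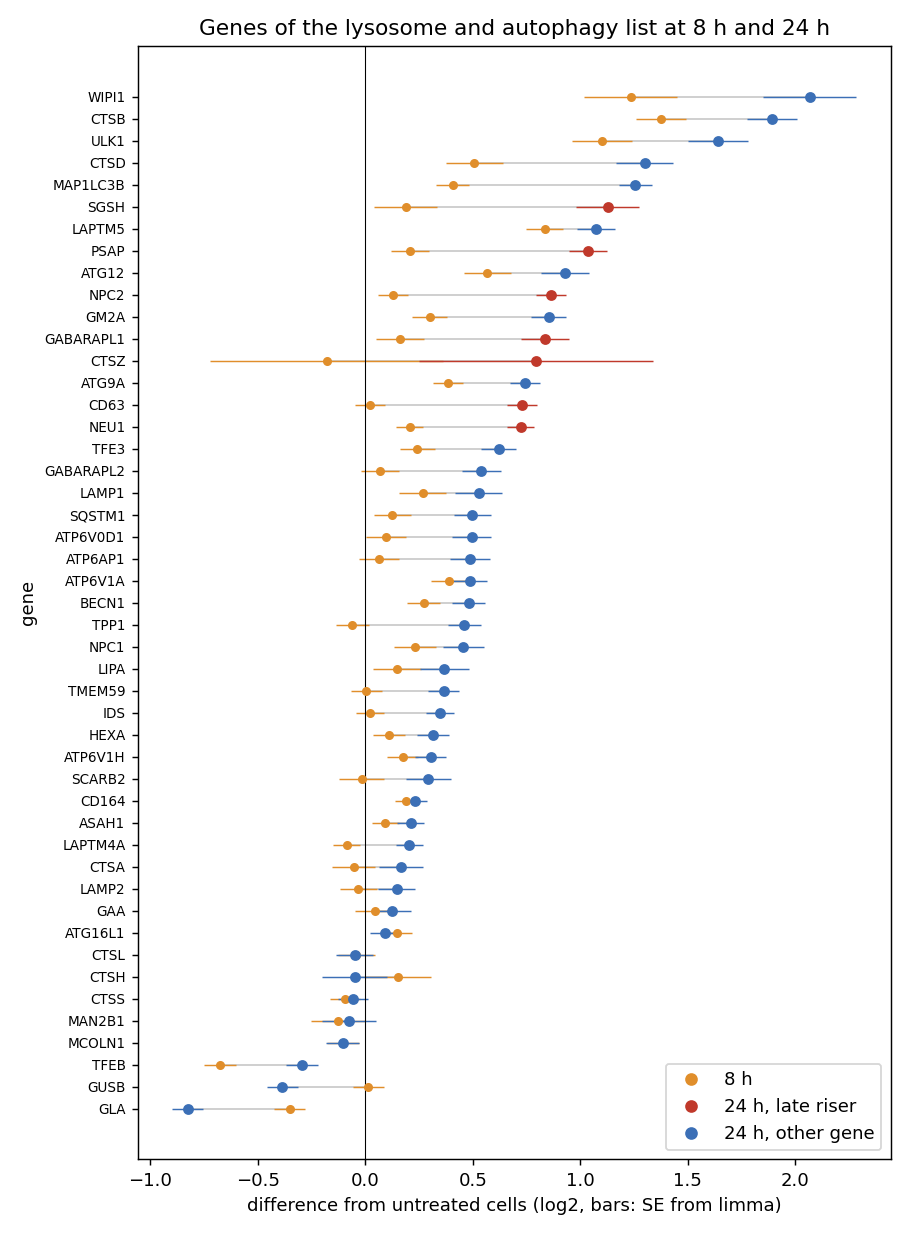
Mean log2 difference from untreated cells at 8 h (orange) and 24 h (red for late risers, blue for the others) for the 47 measured genes of the lysosome and autophagy list, with bars for the SE from limma. The late risers lie close to 0 at 8 h and between 0.72 and 1.13 at 24 h, and the long bar of CTSZ (SE 0.54) reflects the gap between its day sets.

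Promoter sequence was at hand for 83 of the 104 late risers (RefSeq, build GRCh38.p14, 250 bases before to 50 after the annotated start). Short motifs were searched on both strands. The E-box CACGTG, the core that MYC, USF and TFEB-type factors recognise, was in 10 of the 83 windows (12%), against 7.41% of 216 early risers and 9.51% of 9562 measured genes. Its longer form TCACGTGA, which includes the E-box, was added to the search after the data were seen, and nothing is read from its shares. That form was in 5 of 83 (6.02%), against 0.926% of early risers and 1.69% of all. Those 5 genes are GALNS, IGF2R, MAFF, MARCHF8 and TNFAIP3. The stretches around these matches, and that of NEU1 with the shorter motif, are shown because they carry the motif beside lysosomal and signalling members. Each is read along the gene's strand with CACGTG in capitals.
GALNS, chr16:88857101-88857136, minus strand, 174 bases before the start: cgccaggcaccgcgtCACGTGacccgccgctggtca
IGF2R, chr6:159968935-159968970, plus strand, 132 bases before the start: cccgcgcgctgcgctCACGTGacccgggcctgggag
IGF2R, chr6:159968993-159969028, plus strand, 74 bases before the start: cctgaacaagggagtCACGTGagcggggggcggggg
IGF2R, chr6:159969039-159969074, plus strand, 28 bases before the start: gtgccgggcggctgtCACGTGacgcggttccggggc
MARCHF8, chr10:45594900-45594935, minus strand, 13 bases before the start: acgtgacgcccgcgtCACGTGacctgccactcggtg
MAFF, chr22:38201783-38201818, plus strand, 196 bases before the start: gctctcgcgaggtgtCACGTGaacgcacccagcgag
TNFAIP3, chr6:137867166-137867201, plus strand, 78 bases before the start: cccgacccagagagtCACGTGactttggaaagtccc
NEU1, chr6:31862927-31862962, minus strand, 126 bases before the start: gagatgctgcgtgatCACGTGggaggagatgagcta

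IGF2R alone among the printed genes held 3 matches in its window. A match is a string of letters and was not tested as a binding site. The full palindromic glucocorticoid response element, searched as GNACA and TGTNC with 3 bases between them, was in 1 of the 83 windows (1.2%), that of FOXN3, against 1.39% of early risers and 0.282% of all measured genes. The FOXN3 match is shown with its letters in capitals.
FOXN3, chr14:89619382-89619415, minus strand, 244 bases before the start: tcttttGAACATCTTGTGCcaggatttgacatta

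The IRF motif, GAAA given again after 2 bases, was in 6.02% of late riser windows, 3.24% of early riser windows and 2.97% of all. Also above the share of all genes were the E2A-type E-box (20.5% against 17.4%), CCAAT box (38.6% against 37.3%) and PU.1 site (3.61% against 2.64%). Below it were the FOXO site (2.41% against 2.5%), E2F site (2.41% against 2.75%) and TATA box (7.23% against 8.3%). The CHR element (7.23% against 11%) and RUNX site (0% against 1.18%) were below it as well. No difference in motif share was tested. The median GC content was 69.0% for late risers, 67.7% for early risers and 64.0% for all measured genes, and CACGTG holds 4 G or C letters.

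Among genes of chromatin and transcription, KDM7A, a demethylase of repressive histone H3 marks, had 8.51, 8.46, 9.12 and 8.69 at 0 h, 8.55, 8.42, 9.16, 8.84 and 8.88 by 8 h and 9.90, 9.75, 10.08, 10.25 and 10.20 by 24 h. The runs kept their order at 0 h and 8 h, with replicate 3 highest, and all 24 h arrays were higher still, by a mean of 1.34 (SE 0.16). KDM4B, which removes methyl groups from H3 lysine 9, had 8.72, 8.75, 8.76 and 8.31 at 0 h, 8.58, 8.76, 8.78, 8.58 and 8.57 by 8 h and 9.77, 10.03, 9.53, 9.53 and 9.44 by 24 h. Its 8 h mean was within 0.02 of the untreated mean and its 24 h mean 1.03 (SE 0.12) above it, while 4 other probe sets gave 0.98, 0.96, 0.54 and −0.08 at 24 h.

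Histone H2B genes made up 3 of the 12 members of this group. H2BC12 had 10.10, 10.16, 10.26 and 10.16 at 0 h, 10.19, 10.40, 10.26, 10.52 and 10.48 by 8 h and 11.30, 11.32, 11.46, 11.64 and 11.47 by 24 h, a difference of 1.26 (SE 0.08). H2BC12L rose by 1.10 (SE 0.08) and H2BC6 by 0.77 (SE 0.07). None of the 3 overlapped between 24 h and untreated arrays, as for 102 of the 104 members by their choice and 17.8% of all genes. The H2B genes are near copies of each other, so probe sets may read more than 1 of them and the assignment is uncertain. A list of 19 histone genes was drawn up as lying outside the S-phase supply, which was not tested here. Of its 12 measured genes 2 were late and 2 early risers. Of the 10 that were not late risers 5 were higher at 24 h and 2 lower in limma (20.0% and 20.5% of all genes). H2AC6 rose by 2.53 (adjusted p = 5.52e-11) and H2BC5 by 1.75 (adjusted p = 4.87e-10), each with a rise of its own at 8 h (0.72 and 0.42).

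Transcription factors were the rest of the group, with the deacetylase SIRT2 (0.79). MAFF, a small MAF protein, had a difference of −0.01 at 8 h and 0.96 at 24 h (0.48 on a dimmer probe set). SATB1, an organiser of chromatin in lymphoid cells, had the lowest 8 h difference of all members at −0.20 and was 0.92 above untreated cells at 24 h. FOXN3 (0.94, with 0.92 and 0.01 on 2 further probe sets) and FOXK2 (0.76) are forkhead repressors, JUND (0.71) is an AP-1 subunit and PLAG1 (0.70) a zinc finger factor. On a list of chromatin and histone modifiers, 3 of 52 measured genes were late risers (SIRT2, KDM4B and KDM7A), and of the other 49 genes 24 were higher and 4 lower at 24 h in limma, where 20.0% of all genes were higher and 20.5% lower. DNMT1, the maintenance DNA methyltransferase, was lower by 1.51 and HDAC4, a class II deacetylase, higher by 1.41.

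Of the immune and cytokine genes, LGALS1, which encodes the secreted lectin galectin-1, had the largest rise of all members. Its arrays read 10.08, 10.19, 10.54 and 10.0 at 0 h, 10.37, 10.44, 10.16, 10.49 and 10.20 by 8 h and 12.03, 12.11, 11.76, 11.60 and 11.68 by 24 h. The arrays of 0 h and 8 h were mixed and every 24 h array lay more than 1 above them, a difference of 1.63 (SE 0.12) or 3.10-fold. CLEC4A, an inhibitory C-type lectin receptor, read 6.88, 6.81, 6.93 and 6.10 at 0 h, 6.22, 6.37, 7.02, 6.70 and 6.56 by 8 h and 8.00, 7.98, 7.83, 7.90 and 7.96 by 24 h. The 24 h arrays were tightly grouped and the earlier ones spread, with a difference of 1.26 (SE 0.16).

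TNFAIP3, the ubiquitin-editing inhibitor of NF-kappaB also called A20, read 7.92, 7.83, 7.78 and 7.76 at 0 h, 7.46, 7.36, 7.69, 8.02 and 8.03 by 8 h and 8.57, 8.78, 8.74, 9.24 and 9.25 by 24 h. At 8 h it was below the untreated arrays in replicates 1 to 3 and above them in replicates 4 and 5, and at 24 h it was 1.09 (SE 0.16) higher. CD79B, a signalling chain of the B-cell receptor, differed by −0.07 at 8 h and 0.98 (SE 0.10) at 24 h, and its partner CD79A, no late riser, by 0.56. S100A6, a calcium-binding protein, differed by −0.18 at 8 h and 0.99 at 24 h.

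The receptor SLAMF1 (0.85), the kinase JAK1 (0.84), the OX40 ligand TNFSF4 (0.82), the insulin receptor substrate IRS2 (0.86), the antiviral factor SHFL (0.73) and USP18 (0.70), which removes the ubiquitin-like ISG15 from proteins, had smaller differences at 24 h. JAK1 read between 10.61 and 10.76 at 0 h, between 10.79 and 10.99 by 8 h and between 11.43 and 11.63 by 24 h, so that its 3 times did not overlap. IGHD, the constant region of immunoglobulin delta, rose by 0.71 with overlapping arrays and is read by 3 other probe sets whose 24 h differences were 0.41, 0.11 and 1.19. Of 32 measured genes on a list of canonical glucocorticoid-induced genes 2 were late risers (IRS2 and TNFAIP3) and 17 early risers, among them TSC22D3 at 2.69 after 8 h and 3.09 after 24 h. Of 44 measured B-cell maturation genes 2 were late risers (CD79B and IGHD), and of 39 interferon response genes 1 (USP18). Late risers are 0.869% of all genes, so few would fall on any list of this length, and nothing is read from the counts of late risers on these lists or on those of chromatin, actin and vesicle genes.

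GTPase, kinase and actin signalling held the most late risers. RRAS, a RAS-related GTPase, had 5.31, 5.32, 5.10 and 5.07 at 0 h, 5.36, 5.19, 5.28, 5.39 and 5.49 by 8 h and 6.65, 6.64, 5.80, 6.24 and 6.18 by 24 h. All 24 h arrays were higher, replicates 1 and 2 the most and replicate 3 the least, with a mean difference of 1.10 (SE 0.14). Its relative RRAS2 rose by 0.89, and RALGDS, which activates RAL downstream of RAS, by 0.82. EVI5, a GTPase-activating protein for RAB proteins, rose by 1.03, the guanine nucleotide exchange factors ARHGEF40 and ARHGEF3 by 0.86 and 0.85, and PRR5, a subunit of mTORC2, by 0.91.

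Actin regulators among the members were CORO1B (0.81, with 0.30 on a dimmer probe set), CAPG (0.73), LASP1 (0.72), PSTPIP1 (0.74) and the RAC1-binding CYRIA (0.88). The ribosomal S6 kinases RPS6KA1 and RPS6KA2 rose by 0.80 and 0.81. For RPS6KA2 a second probe set, dimmer in untreated cells, rose by 1.22 at 8 h and 3.19 at 24 h, so its place among the late risers depends on the probe set. The adenylyl cyclase ADCY7 was lower by 0.18 at 8 h and higher by 0.71 at 24 h. On a list of actin cytoskeleton genes 2 of 50 were late risers (CAPG and CORO1B), and of the other 48 genes 22 were higher and 2 lower at 24 h in limma, beside the same 20.0% and 20.5% of all genes. RHOC rose by 1.18 at 8 h and 2.43 at 24 h and GSN, which encodes gelsolin, by 2.12 and 3.04, both as early risers.

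Of the ubiquitin and vesicle genes, HIP1, an endocytic adaptor, rose by 0.91 (0.06 on a dim second probe set), the ligase MYLIP, which targets the LDL receptor, by 0.88, and the conjugating enzyme UBE2H by 0.87. MYLIP read between 7.77 and 8.21 at 0 h, between 8.01 and 8.27 by 8 h and between 8.87 and 9.06 by 24 h, so that the first pair of times overlapped and the last stood apart. The ligases MARCHF8 (0.82), RNF11 (0.73) and RNF146 (0.73), the AP-2 subunit AP2A2 (0.78), LRP10 (0.76), the gamma-secretase subunit APH1B (0.73), PACS2 (0.74) and RAB20 (0.72) had smaller differences. Further AP2A2 probe sets differed by 0.256, 0.251 and 0.273 at 8 h, just outside the limit, and by 0.78, 0.40 and 0.62 at 24 h. On a list of vesicle traffic genes 2 of 47 were late risers (HIP1 and RAB20), and of the other 45 genes 16 were higher and 6 lower in limma, again beside 20.0% and 20.5%.

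In transport and metabolism, AQP3, a channel for water and glycerol, had 5.65, 5.65, 5.80 and 5.75 at 0 h, 5.38, 5.52, 5.96, 5.91 and 5.94 by 8 h and 6.75, 6.75, 6.92, 7.17 and 7.20 by 24 h. At 8 h the arrays of day set A were below the untreated arrays and those of day set B above them, and at 24 h all were higher, by 1.24 (SE 0.13). Both further AQP3 probe sets stayed near their untreated level at 24 h (0.06 and 0.08). ST3GAL5, which makes the ganglioside GM3, rose by 0.99, the monocarboxylate transporter family members SLC16A4 and SLC16A5 by 0.94 each, the store-operated calcium channel ORAI3 by 0.87, and AMPD3, an AMP deaminase, by 0.86. Further SLC16A5 probe sets differed by 0.08 and 0.54 at 24 h, the latter with 0.28 at 8 h. Enzymes of the secretory pathway were the sulfotransferase TPST2 (0.91), the prolyl hydroxylase P4HA2 (0.90) and the oxidase ERO1B (0.89).

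Of the 20 genes not placed, TMEM140 had 5.84, 5.84, 5.19 and 5.33 at 0 h, 5.56, 5.38, 5.90, 5.75 and 6.01 by 8 h and 6.61, 6.73, 6.64, 7.09 and 7.44 by 24 h. The 24 h arrays stood apart by a mean of 1.35 (SE 0.19), but at 8 h replicates 1 and 2 were below their own untreated arrays and replicate 3 above its own. LOC100996756, a locus without a name, averaged 5.10 (SD 0.12, n = 4) at 0 h and read 5.08, 5.05, 5.39, 5.40 and 5.40 by 8 h and 6.23, 6.66, 5.77, 6.25 and 6.21 by 24 h, a difference of 1.12 with all 24 h arrays above the rest. The other 18 ranged between 0.70 (FHIP2B) and 0.999 (UAP1L1) at 24 h.

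**Figure D4:**
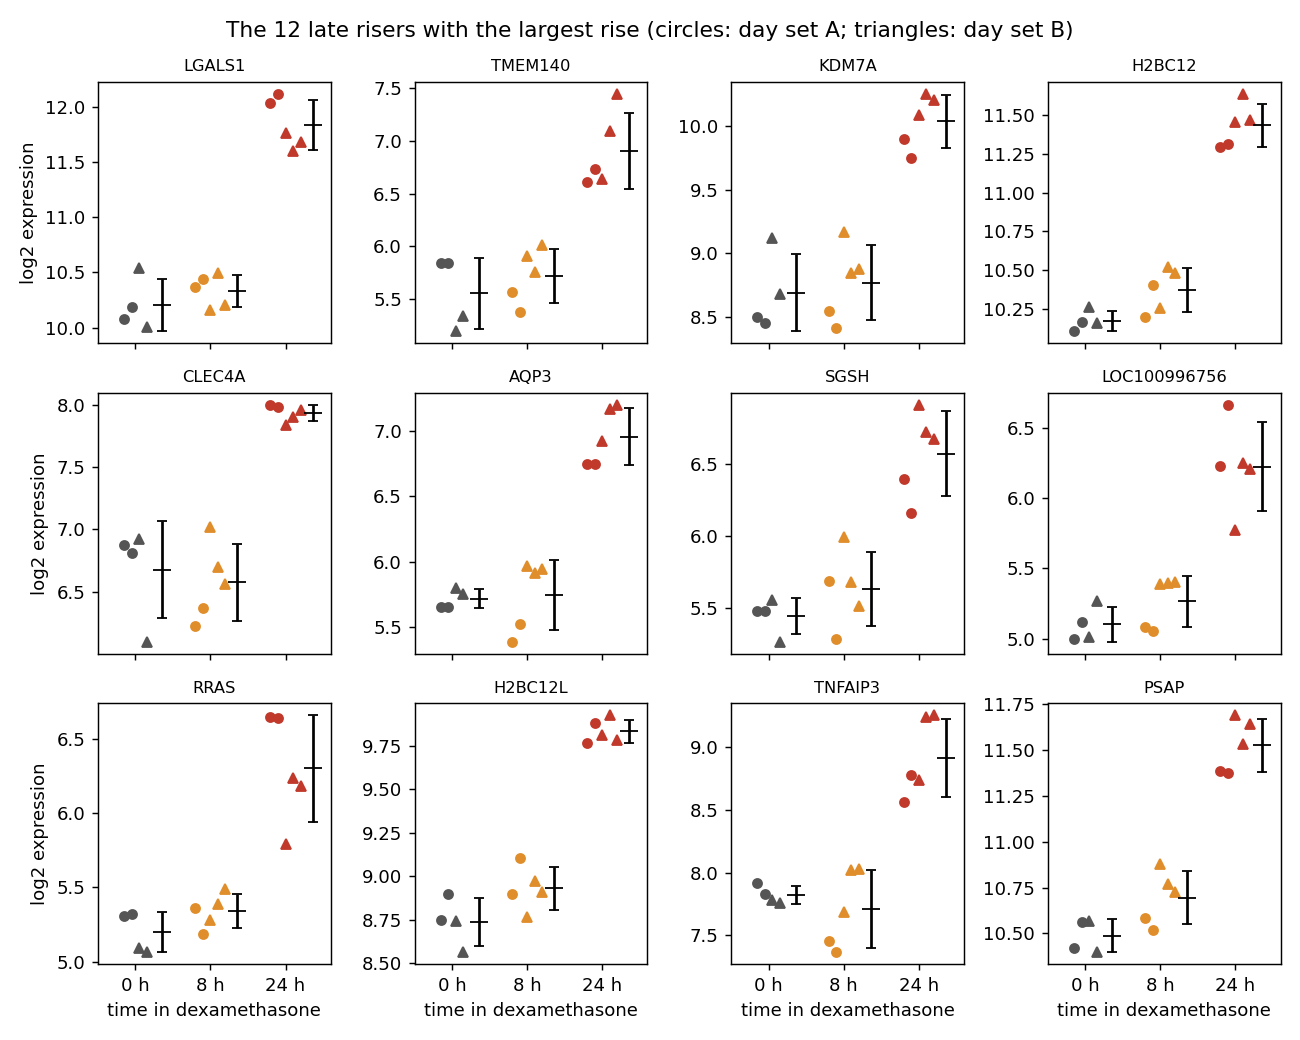
Log2 expression on each array at 0, 8 and 24 h for the 12 late risers with the largest difference at 24 h, with circles for day set A, triangles for day set B, and a cross bar and whiskers for the mean and SD (n = 4, 5 and 5). In each panel the 24 h arrays lie above all others, by a narrow gap for SGSH and a wide one for LGALS1.

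Day of the experiment was not named in the rule, but the choice was not independent of it. A run of day set B has no untreated array, so genes higher in B had slightly raised mean differences at 8 h and 24 h. With the run as a block, 90 of the 104 late risers stayed inside the 24 h limit and 100 inside the 8 h limit. Of the 104 late risers 43 differed between day sets A and B by limma with time in the model, 7 higher in A and 36 lower, while 33.9% of all genes differed, 17.5% higher and 16.4% lower. The model had no term for run, so arrays of one run counted as independent although their residuals correlated (0.291 to 0.532). Its p-values may therefore be too small and its counts too high. Among the early risers 38.5% were lower in A, near the 34.6% of the late risers. Both sets were chosen from the same means, so the excess of genes lower in A may follow from the choice, and nothing is read from it. The smallest adjusted p was that of CTSZ, higher in A by 1.72 (SE 0.06, adjusted p = 1.28e-10), followed in order of p by LASP1, lower by 0.44 (SE 0.05, adjusted p = 1.54e-05), and UBE2H, lower by 0.48 (SE 0.06, adjusted p = 3.65e-05). SIRT2 was higher in A by 0.34 (SE 0.04, adjusted p = 4.80e-05) and N4BP3 lower by 0.59 (SE 0.08, adjusted p = 0.000102). In SIRT2, untreated arrays read 7.41 and 7.51 in A and 7.17 and 7.07 in B, and the rise at 24 h was 0.85 in A and 0.81 in B.

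The 8 h differences were also split by day set, but a difference between the sets at 8 h was not tested. At 8 h the late risers had a median difference of 0.00 in day set A, with 53 genes above and 51 below their untreated mean, and of 0.21 in day set B, with 94 above and 10 below. Over all genes the 8 h medians were 0.00 in A and −0.03 in B. In day set B 36 of the 104 (34.6%) had reached 0.25 by 8 h, where 12% of all genes had, and in day set A 7 (6.73%), where 13.2% had, so that the near-zero mean at 8 h of some members joins a fall in one day set and a rise in the other. IGHD (−0.38 in A, 0.68 in B), TMEM140 (−0.37 and 0.63) and ARHGEF3 (−0.33 and 0.53) were among the widest of these at 8 h. These are descriptions, since the 8 h means belong to the rule. The baseline of day set B is 2 untreated arrays, and a run of that set has no untreated array. The median late riser value was 8.16 in untreated replicate 3 and 8.02 in untreated replicate 4. How far the lower of these arrays sets the 8 h differences in day set B was not tested. Applied within each day set alone, the rule found 135 genes in A and 90 in B, of which 34 were shared (25.2% of those in A and 37.8% of those in B), and all 34 are among the 104. They include KDM7A, H2BC12, H2BC12L, AQP3, EVI5, KDM4B, NPC2, CTSZ, CD79B and JAK1.

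Whether the rise at 24 h itself differed between day sets was tested as an interaction. It passed for 1 of 104 late risers (1.05% of all genes passed), ARHGEF3, which rose by 0.49 in A and 1.12 in B, a difference of −0.63 (SE 0.13, adjusted p = 0.0416 in limma). The call was lost without run 5, and in 10 of 14 fits that each left out an array the count of late risers was 0. IGHD (0.29 in A and 1.15 in B, adjusted p = 0.0507) and TMEM140 (0.83 and 1.80, adjusted p = 0.0902) did not pass. Without adjustment 21 of 104 (20.2%) had p below 0.05, against 15.1% of all genes and 24.5% of early risers.

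Of the 104 members 39 were read by 59 further probe sets. Of the 41 that reached a mean of 6 at 24 h, 40 were higher at 24 h than in untreated cells, 22 by at least 0.7, and 16 met every limit of the rule. Of the 18 dimmer ones 1 reached 0.7. By chromosome, 13 late risers lay on chromosome 6 (1.93% of the genes measured there) and 14 on chromosome 1 (1.17%), beside 0.869% of all genes. Chromosome 22 held 6 (1.92%) and chromosome 14 held 7 (1.84%), so chromosome 6 did not stand apart. Only 3 pairs had no more than 2 measured genes between them, AHCYL2 with UBE2H on chromosome 7, IRS2 with RAB20 on chromosome 13 and TNFAIP3 with HEBP2 on chromosome 6.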

How the data were processed

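Affymetrix arrays measured RNA of 14 samples, per the labels. The authors background-corrected, normalized and summarized them by RMA with the affy package, and deposited log2 values for 22277 probe sets. No count of molecules lies behind a value, so the number of arrays limits the precision. Probe sets annotated with 1 gene (19070, with 1043 annotated to several genes and 2164 to none) were kept, and each of 11963 genes was read by the one with the highest mean over all arrays. This differs from the variance filter and mean per gene of the study's methods, which were run as alternatives. limma 3.58.1 in R 4.3.3 (lmFit, eBayes) compared the groups without a block, with Benjamini-Hochberg adjustment over all genes, and was tested on simulated data. The members, the 27 gene lists and the tests were chosen with earlier results of these data known, the role groups once the members were known, and the TCACGTGA motif, the further probe sets and the split of 8 h values by day set after seeing the data. Full values are given for the 12 largest rises, up to 3 members of each list, members nearest each limit, those with the smallest adjusted p between day sets, and the response element match, and up to 3 other genes per list. The further genes named were chosen after their values were seen. Residuals of arrays of one run, as read from the suffixes of the labels, correlated in all 13 pairs (0.291 to 0.532). Pairs from different runs and groups ranged from −0.477 to 0.473 (52 pairs), and pairs with the same title number from 0.224 to 0.532 (13 pairs). These ranges overlap, so pairing by run rests on the reading of the labels. No 2 arrays held the same values, the smallest SD of a difference between 2 arrays over genes being 0.151.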

Additional observations from a re-analysis of the deposited data

Results flagged for a closer look

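In 111 groups of 4 or 5 arrays (37 named late risers at 3 times), 7 held an array far from the others by Dixon's test, where chance flags about 1 in 20. CLEC4A was low in untreated replicate 4 (6.096, the others 6.811 to 6.926), and so was KDM4B (8.308, the others 8.718 to 8.758). At 24 h, replicate 3 was high for NPC2 (11.55, the others 11.29 to 11.35) and HIP1 (6.323, the others 5.895 to 6.001), and low for CD79B (10.18, the others 10.56 to 10.69) and TPBG (8.874, the others 9.146 to 9.201). MYLIP was high in 24 h replicate 1 (9.06, the others 8.874 to 8.927).

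The rise of ARHGEF3 at 24 h differed between day sets A and B by −0.628 in limma's interaction test.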

How the results depend on the processing

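The count of 104 late risers depended most on the limits: 47 with an 8 h limit of 0.15, 185 with 0.35, 302 with a 24 h limit of 0.5 and 14 with 1. Leaving out each array in turn gave 90 to 120, sharing 77 to 102 with the 104, and 45 genes were in every one. Other settings gave 81 (arrays shifted to the same median) to 135 (day set A only). With the run as a replicate block the rule found 98 genes, 86 of them shared, and with the title number as the block 105 (93 shared). Over all genes the block by run gave 5592 calls at 24 h, 3302 at 8 h and 4459 between them, without it 4849, 2351 and 3447. At an adjusted p below 0.01, 1471 genes were called at 8 h, 2461 between day sets and 16 in the rise by day set, with 0 late risers among the last. The rise by day set moved most: from 126 genes and 1 late riser it became 54 and 0 without run 5, 394 and 5 with a trended and robust fit, and 283 and 5 among genes with a mean of at least 5. Leaving out each array in turn gave 18 to 122 genes and 0 to 3 late risers there, and 34 to 49 late risers between day sets. Causes were not tested. Of the 24 h differences of the 37 named late risers under alternatives, 1097 moved by less than 1 SD, 50 by more, and 0 changed sign. The count of small moves is no measure of stability. Settings that change only a limit cannot move these values, and leaving out an 8 h array can do so only through the choice of probe set. The SD was each gene's own at 24 h, so a wide gene could move far. CTSZ (SD 0.97) went from 0.79 to 0.37 with the mean of its probe sets and still counted as a small move.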
